A study of Mus musculus with 18 samples.

Results

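The genes described here are 10 genes of de novo lipogenesis, chosen by name: the regulators Mlxipl, Srebf1 and Thrsp and the enzymes Acly, Acss2, Acaca, Fasn, Scd1, Scd2 and Me1. All 10 had a probe among the 19057 genes with a probe of 1 gene symbol in the platform annotation, and 9 of them were above background, as were 10958 genes in all. They were followed in 3T3-L1, a fibroblast-like mouse line whose cells can be made into adipocytes. After 7 days of differentiation the cultures received, for 24 h, rosiglitazone at 100 nM, diclofenac as its sodium salt at 25 µM, indomethacin at 10 µM, ibuprofen at 75 µM, GQ16 at 10 µM or the vehicle DMSO, and each of the 6 groups was measured on 3 Illumina arrays. Rosiglitazone is an agonist of the nuclear receptor PPARγ, diclofenac, indomethacin and ibuprofen are non-steroidal anti-inflammatory drugs, and GQ16 is another PPARγ ligand. The doses differed between compounds, so the responses below are those of each compound at its own dose. Whether the 3 samples in each group were grown as separate cultures is not given in the labels, so the p-values rest on a spread between samples that may be technical.

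De novo lipogenesis makes fatty acids from carbohydrate. Citrate leaves the mitochondrion and is cut to acetyl-CoA, acetyl-CoA is carboxylated to malonyl-CoA, fatty acid synthase builds palmitate from both with reducing power from NADPH, and stearoyl-CoA desaturases introduce a double bond. In adipocytes the pathway is known to be driven by the transcription factors ChREBP, which responds to glucose metabolites, and SREBP-1c, which responds to insulin.

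The values are log2 intensities that the authors had normalized, 1 value per probe and array, and a probe counted as above background where it exceeded 6.18. The intensity of one probe cannot be set against that of another. The arrays lay on 3 slides. Slide 1 held replicates 1 and 2 of DMSO, 2 and 3 of rosiglitazone, 2 of diclofenac and 3 of indomethacin. Slide 2 held all 3 ibuprofen arrays with replicate 1 of diclofenac and of GQ16 and replicate 3 of DMSO. Slide 3 held replicates 2 and 3 of GQ16, 1 and 2 of indomethacin, 3 of diclofenac and 1 of rosiglitazone, and no DMSO array. GQ16 shared only slide 2 with DMSO. Ibuprofen and rosiglitazone shared no slide. Within their groups, replicate 1 of rosiglitazone and replicate 3 of DMSO stood farthest from the other arrays (root mean square deviation over all genes tested 0.286 and 0.207 log2 units, against 0.156 to 0.229 for the other rosiglitazone arrays and 0.120 to 0.136 for the other DMSO arrays). Where a call of the 10 genes was gained or lost without these 2 arrays, both values are given. Without DMSO replicate 3, the DMSO arrays left lay on slide 1, which held no ibuprofen or GQ16 array. Compound and slide cannot be told apart for ibuprofen and GQ16 against DMSO in that setting. Adipocyte markers were present: all 9 with a probe were above background, with a summed linear intensity of 57660 to 63568 with rosiglitazone, 56351 to 63015 with diclofenac, 58760 to 59975 with indomethacin, 54104 to 58625 with ibuprofen and 50568 to 55780 with GQ16, against 46407 to 53260 with DMSO. Bright probes weigh most in these sums. By limma, 2 of the 9 adipocyte markers rose with rosiglitazone (8.06% of all genes did) and 2 with ibuprofen (4.26%). With rosiglitazone they were Cd36 and Pnpla2, called in 23 and 20 of 27 alternatives. With ibuprofen they were Cd36 and Plin1, each called in 21 of 27 alternatives. Both ibuprofen calls were lost with slide as a block. With diclofenac, indomethacin and GQ16, 0 rose. Lep fell with indomethacin, by 0.40 (limma, adjusted p = 0.00968). Of 6 macrophage markers Csf1r and Cd14 were above background and Adgre1, Itgam, Ptprc and Lyz2 below it. Of 4 endothelial markers Tek and Kdr were above and Pecam1 and Cdh5 below, and Kdr rose by 0.33 ± 0.11 with rosiglitazone (limma, adjusted p = 0.0346, called in 19 of 27 alternatives), whose part in the results was not tested.

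Against DMSO, most of the members called were regulators. Thrsp and Mlxipl fell with rosiglitazone, diclofenac, indomethacin and ibuprofen, and Srebf1 fell with rosiglitazone. Among the enzymes, Acly, which makes cytosolic acetyl-CoA, fell with rosiglitazone and with ibuprofen. With 1 probe standing for each gene, no member rose against DMSO with any of the 5 compounds, and none was called with GQ16; a second Acss2 probe, described below, was called higher with ibuprofen. In the F test of limma over the 6 groups, 2 of the 9 measured members passed an adjusted p of 0.05, Thrsp (adjusted p = 2.64e-06) and Mlxipl (0.00231), where 18.5% of all genes tested did. The count was 4 without replicate 2 of rosiglitazone and 5 without replicate 1 of GQ16. The F test adjusted p was 0.0548 for Acly and 0.0585 for Srebf1, and between 0.097 and 0.455 for the other 5.

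**Figure D1:**
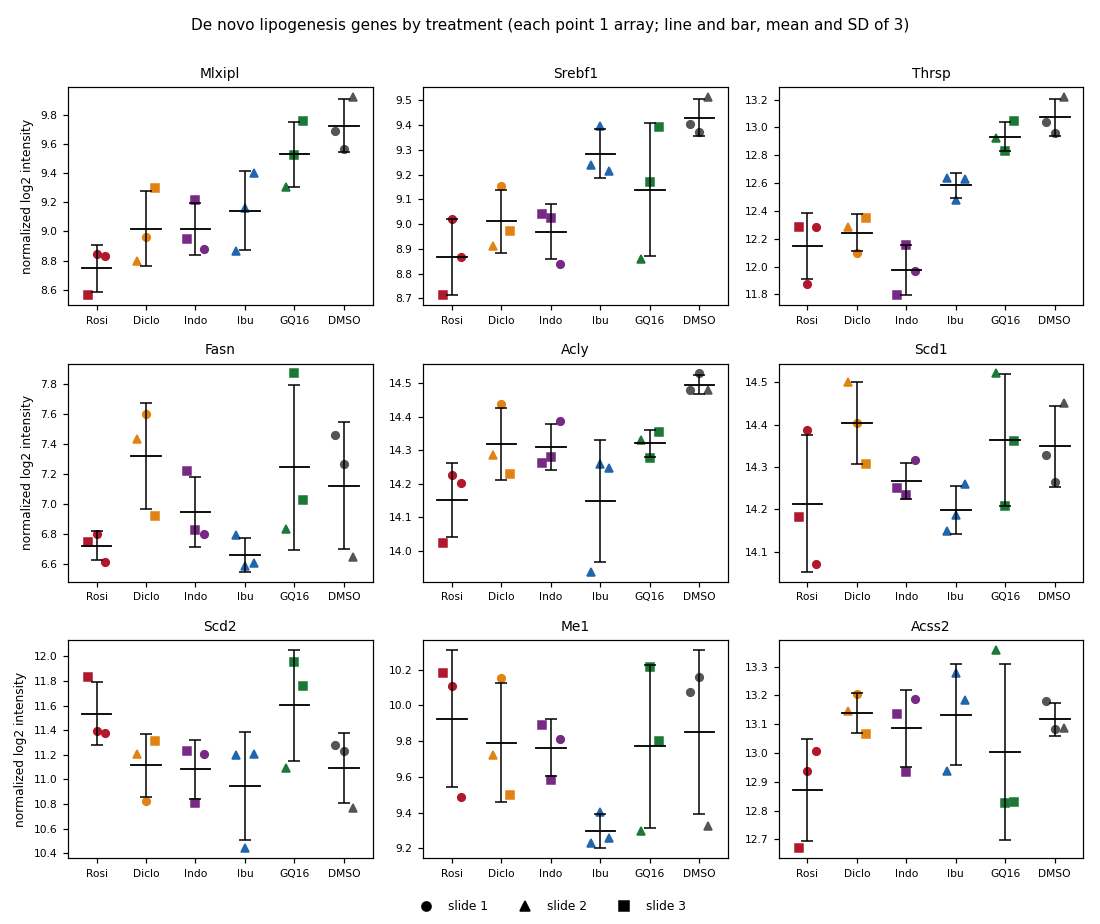
Normalized log2 intensity of the 9 measured members on each array, in 6 treatment groups, with a panel and a scale for each gene; horizontal lines are group means, bars are 1 SD of 3 arrays, and the point shape gives the slide. The rosiglitazone, diclofenac, indomethacin and ibuprofen arrays of Mlxipl and Thrsp lie below all 3 DMSO arrays, while those of Scd1 and Scd2 mostly overlap them.

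Counted by compound, rosiglitazone lowered 4 of the 9 measured members (Mlxipl, Thrsp, Srebf1 and Acly), where 10.0% of all genes tested fell. Ibuprofen lowered 3 (Mlxipl, Thrsp and Acly) where 5.20% of all genes fell, indomethacin lowered 2 (Mlxipl and Thrsp) where 6.65% did, and diclofenac lowered the same 2 where 1.48% did. The 0 of 9 members that rose stand beside 8.06% of all genes with rosiglitazone, 0.621% with diclofenac, 3.58% with indomethacin, 4.26% with ibuprofen and 0.684% with GQ16. Both directions together took in 18.1% of all genes with rosiglitazone, 2.10% with diclofenac, 10.2% with indomethacin and 9.46% with ibuprofen. With GQ16, 0 of 9 were called by limma and 1 (Scd2) had an unadjusted p under 0.05, where 1.43% of all genes were called in either direction and 0.748% fell. The 5 comparisons share the 3 DMSO arrays. The median log2 change of the 9 members was -0.34 with rosiglitazone, -0.06 with diclofenac, -0.17 with indomethacin, -0.35 with ibuprofen and -0.11 with GQ16, and the median over all genes tested lay between -0.00 and 0.01 in each. Leaving out 1 array at a time gave 3 to 5 calls with rosiglitazone, 1 or 2 with diclofenac, 1 to 3 with indomethacin and 0 to 4 with ibuprofen. The 0 came without replicate 1 of DMSO. Without the 2 arrays that stood apart, rosiglitazone called 2 members and diclofenac 1. With slide as a block, ibuprofen called 1 member, Thrsp, and within slide 2, where 1 DMSO array was left, it called 0.

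**Figure D2:**
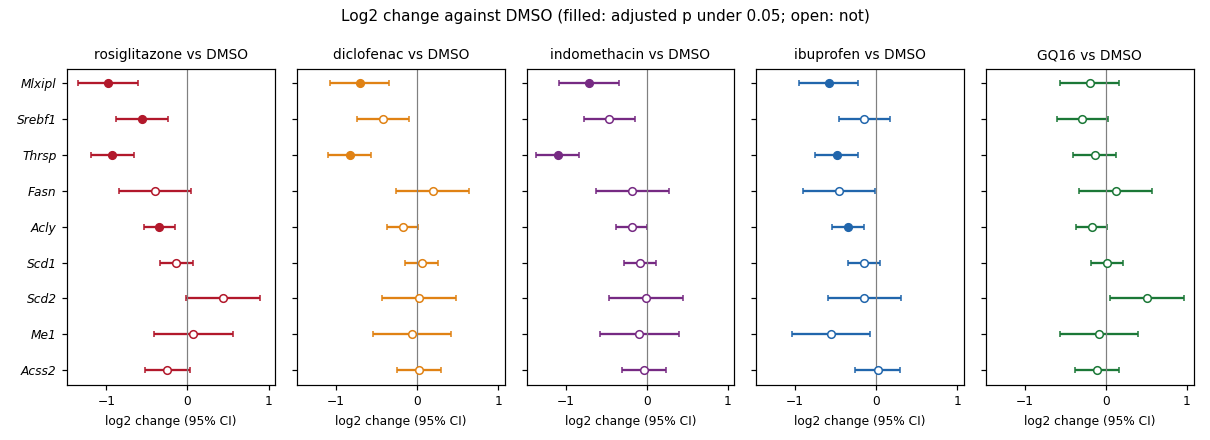
Log2 change of each measured member against DMSO, with 1 panel per compound; bars are 95% confidence intervals, filled points passed an adjusted p of 0.05 and open points did not. Thrsp and Mlxipl are filled in the first 4 panels, and no point is filled for GQ16.

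Mlxipl encodes ChREBP, the glucose-responsive factor that switches on glycolytic and lipogenic genes together with its partner Mlx. It read 8.56, 8.85 and 8.83 log2 units after rosiglitazone, 8.79, 8.96 and 9.30 after diclofenac, 8.95, 9.22 and 8.88 after indomethacin, 8.86, 9.16 and 9.40 after ibuprofen and 9.30, 9.53 and 9.76 after GQ16, against 9.69, 9.57 and 9.92 after DMSO. Every array of the first 4 groups lay below every DMSO array, and 2 of the 3 GQ16 arrays did. The share of all genes whose arrays lay apart in this way was not counted, here or for the members below. The log2 change was -0.98 ± 0.18 (SE) with rosiglitazone (limma, adjusted p = 0.000391), a 1.97-fold lower intensity. It was -0.71 ± 0.18 with diclofenac (adjusted p = 0.0331), -0.71 ± 0.18 with indomethacin (0.0107) and -0.58 ± 0.18 with ibuprofen (0.0374). With GQ16 it was -0.20, with a 95% interval of -0.56 to 0.17. These are RNA pools of whole cultures, in which fewer cells of a type and less RNA per cell cannot be told apart.

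A second Mlxipl probe, on a lower part of the scale, gave the same calls in a fit over 17674 probes. It read 8.20, 8.08 and 8.06 after rosiglitazone, 8.25, 8.27 and 8.43 after diclofenac, 8.16, 8.25 and 8.10 after indomethacin, 8.09, 8.16 and 8.12 after ibuprofen and 8.74, 8.69 and 8.57 after GQ16, against 9.07, 8.89 and 8.87 after DMSO. Its arrays spread less within groups than those of the first probe, and all 15 treated arrays lay below all 3 DMSO arrays. The log2 change was -0.83 ± 0.13 with rosiglitazone (limma, adjusted p = 0.00014), -0.63 ± 0.13 with diclofenac (0.0141), -0.77 ± 0.13 with indomethacin (0.000577), -0.82 ± 0.13 with ibuprofen (0.000384) and -0.28 ± 0.13 with GQ16 (0.301). The rosiglitazone call of the first probe held in all 27 alternatives tried. The first probe's adjusted p without the 2 arrays apart was 0.0518 with diclofenac and 0.0547 with ibuprofen, and leaving out 1 of 5 single arrays ended the call of each (replicates 1 and 2 of the compound and any DMSO replicate), with an adjusted p of up to 0.186 with diclofenac and 0.199 with ibuprofen. The indomethacin call was lost without its replicate 1 (0.0575) or 3 (0.0585). For ibuprofen, the first probe had a log2 change of -0.55 with slide as a block (adjusted p = 0.158), and the second one of -0.82 (0.00414).

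**Figure D3:**
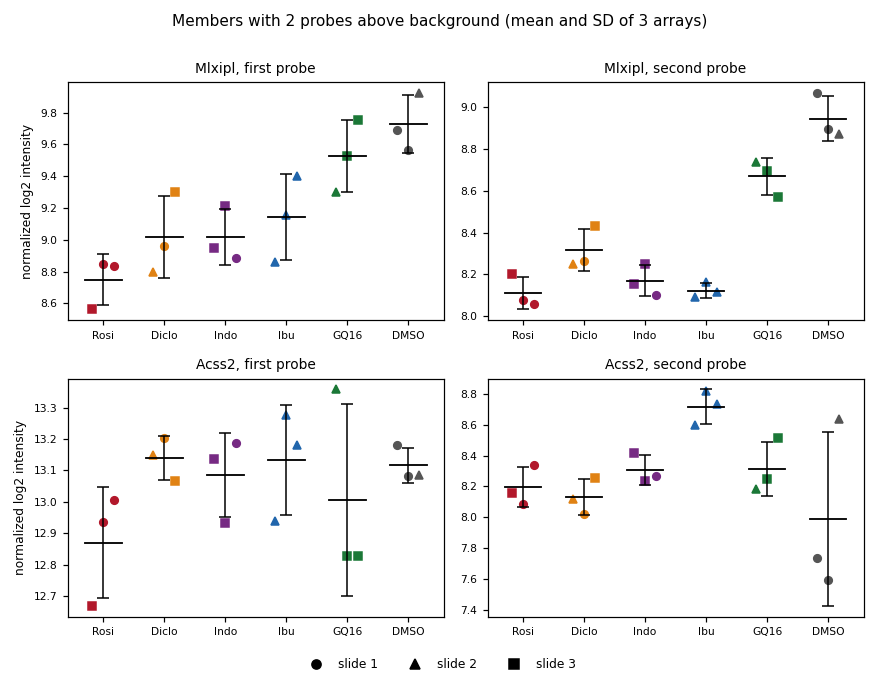
Normalized log2 intensity of the members with 2 probes above background, Mlxipl in the upper row and Acss2 in the lower, on each array by treatment, with group means and 1 SD of 3 arrays; the shape gives the slide. The Mlxipl probes order the groups alike at both ends, and the Acss2 probes differ, with DMSO replicate 3 at 8.64 on the second probe against 7.74 and 7.60 for the other DMSO arrays.

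Mouse Mlxipl is known to be transcribed from alternative first exons, the upstream one giving the shorter isoform ChREBPβ, and which exon the probes' signal came from was not tested. The 250 bases before each of its RefSeq starts are shown because Mlxipl is the regulator called with 4 compounds and because the upstream window holds an E-box, the kind of core that ChREBP elements are built from. The windows are chr5:135089640-135089889 and chr5:135106641-135106890 (GRCm38.p6, + strand), and capitals mark an E-box, a CCAAT box or a sterol-element-like match on either strand.
Mlxipl, upstream start: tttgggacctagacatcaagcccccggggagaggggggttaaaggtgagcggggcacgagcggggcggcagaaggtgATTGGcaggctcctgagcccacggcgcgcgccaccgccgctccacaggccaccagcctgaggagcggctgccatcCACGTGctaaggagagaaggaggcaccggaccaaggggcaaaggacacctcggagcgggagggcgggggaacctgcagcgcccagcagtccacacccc
Mlxipl, downstream start: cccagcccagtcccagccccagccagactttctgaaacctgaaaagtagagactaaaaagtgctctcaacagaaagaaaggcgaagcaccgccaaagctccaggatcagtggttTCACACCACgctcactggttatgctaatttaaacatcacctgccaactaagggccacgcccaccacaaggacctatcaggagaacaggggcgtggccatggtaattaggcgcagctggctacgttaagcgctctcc
In the upstream window the E-box CACGTG lay 98 to 93 bases before the start and an inverted CCAAT box 173 to 169 bases before it, and in the downstream window the sterol-element-like match lay 136 to 128 bases before the start. RefSeq promoter entries were found for 8 of the 10 members, in 12 windows. Of 7 motifs searched on both strands in all 32851 windows, the E-box CACGTG was in 6.02% of windows and in 1 member window (Mlxipl). CCAAT was in 33.85% of windows and in 7 of the 12 member windows, from 6 members. The sterol-element-like TCACNCCAC was in 1.05% and the looser TCACNNCAC, which contains every match of the stricter one, in 3.11%, both in Mlxipl. The nuclear receptor core AGGTCA was in 14.02% of windows and in 1 member (Acly). The GC box GGGCGG was in 32.74% of windows and in 6 of the 12 member windows, from 5 members. TATAAA was in 12.37% of windows and in 0 member windows.

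Thrsp encodes Spot 14, a nuclear and cytosolic protein of lipogenic tissues that is induced by carbohydrate and thyroid hormone and supports fatty acid synthesis. It read 12.29, 11.87 and 12.29 after rosiglitazone, 12.29, 12.10 and 12.35 after diclofenac, 11.80, 12.15 and 11.97 after indomethacin, 12.64, 12.48 and 12.63 after ibuprofen and 12.93, 12.83 and 13.04 after GQ16, against 13.04, 12.96 and 13.22 after DMSO. The rosiglitazone, diclofenac and indomethacin arrays overlapped one another, the ibuprofen arrays lay apart above them, and the GQ16 arrays overlapped those of DMSO. The log2 change was -1.10 ± 0.13 (SE) with indomethacin (limma, adjusted p = 3.32e-06), a 2.14-fold lower intensity. It was -0.92 ± 0.13 with rosiglitazone (adjusted p = 1.79e-05), -0.83 ± 0.13 with diclofenac (0.000511) and -0.49 ± 0.13 with ibuprofen (0.0175). With GQ16 it was -0.14, with a 95% interval of -0.40 to 0.13.

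The rosiglitazone and indomethacin calls of Thrsp held in all 27 alternatives tried, and the diclofenac call in 27 of 28. The exception was slide 2 alone, where 1 diclofenac and 1 DMSO array were left and the change was -0.93. That fit had no spread of either group to rest on. The ibuprofen change was -0.64 within slide 2, where 1 DMSO array was left. The ibuprofen call was lost there, without replicate 2 of ibuprofen and without replicate 1 of DMSO. It was kept with slide as a block (-0.60, limma, adjusted p = 0.0186). A second Thrsp probe was above background on 1 of 18 arrays. The 250 bases before the Thrsp start, chr7:97417551-97417800 (GRCm38.p6, - strand), are shown because Thrsp had the smallest F test p among the members and because they hold 2 CCAAT boxes, the first inverted and both in capitals.
Thrsp: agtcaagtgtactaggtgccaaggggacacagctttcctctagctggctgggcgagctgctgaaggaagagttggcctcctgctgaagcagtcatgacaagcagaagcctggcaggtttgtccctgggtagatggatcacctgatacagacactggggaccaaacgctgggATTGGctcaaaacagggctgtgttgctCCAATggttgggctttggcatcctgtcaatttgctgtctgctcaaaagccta
The boxes lay 79 to 75 and 52 to 48 bases before the start.

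Srebf1 encodes SREBP-1, whose isoform SREBP-1c is the insulin-responsive factor that turns on the lipogenic enzymes. Which isoform the probe's signal came from was not tested. It read 8.71, 9.02 and 8.87 after rosiglitazone, 8.91, 9.15 and 8.97 after diclofenac, 9.04, 9.03 and 8.84 after indomethacin, 9.24, 9.40 and 9.22 after ibuprofen and 8.86, 9.17 and 9.39 after GQ16, against 9.40, 9.37 and 9.51 after DMSO. The rosiglitazone, diclofenac and indomethacin arrays all lay below the DMSO arrays, and those of ibuprofen and GQ16 overlapped them. It fell with rosiglitazone, by 0.56 ± 0.15 on the log2 scale (limma, adjusted p = 0.0128). The log2 change was -0.42 with diclofenac (95% interval -0.74 to -0.10, adjusted p = 0.182), -0.46 with indomethacin (-0.78 to -0.14, 0.0573), -0.14 with ibuprofen (-0.46 to 0.17) and -0.29 with GQ16 (-0.61 to 0.03). The rosiglitazone change was -0.44 without the 2 arrays apart (adjusted p = 0.0749). Within slide 1 the same rosiglitazone and DMSO arrays were compared, with an adjusted p of 0.0617, so these are not separate checks. In a fit of the rosiglitazone and DMSO groups alone the adjusted p was 0.0996. Srebf1 passed with indomethacin in 7 of 27 alternatives. Its second probe was above background on 0 arrays.

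Among the enzymes, Acly, the ATP citrate lyase that turns cytosolic citrate into acetyl-CoA, was the member called. It read 14.02, 14.22 and 14.20 after rosiglitazone, 14.29, 14.44 and 14.23 after diclofenac, 14.26, 14.28 and 14.39 after indomethacin, 13.94, 14.26 and 14.25 after ibuprofen and 14.33, 14.28 and 14.35 after GQ16, against 14.48, 14.53 and 14.48 after DMSO. All 15 treated arrays lay below all 3 DMSO arrays. It fell by 0.34 ± 0.09 on the log2 scale with rosiglitazone (limma, adjusted p = 0.0123) and by 0.35 ± 0.09 with ibuprofen (0.0202), each a 1.27-fold lower intensity. The log2 change was -0.18 with diclofenac (95% interval -0.37 to 0.02), -0.19 with indomethacin (-0.38 to 0.01) and -0.18 with GQ16 (-0.37 to 0.02). The probe lay near the top of the scale, with 18 to 150 brighter probes on an array, and its brightest value was 0.25 below the highest value on the arrays; compression there was not tested. Without the 2 arrays apart the rosiglitazone adjusted p was 0.0585 (also lost without rosiglitazone replicate 1 or DMSO replicate 2, at up to 0.0573), and with slide as a block the ibuprofen change was -0.29 (adjusted p = 0.146; also lost without ibuprofen replicate 1 or DMSO replicate 1 or 2, at up to 0.151).

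Acss2, which makes acetyl-CoA from acetate instead of citrate, gave 2 probes that disagreed. The brighter probe, which stands for the gene, had a log2 change of -0.25 with rosiglitazone (95% interval -0.52 to 0.03), 0.02 with diclofenac (-0.25 to 0.30), -0.03 with indomethacin (-0.30 to 0.24), 0.02 with ibuprofen (-0.26 to 0.29) and -0.11 with GQ16 (-0.39 to 0.16), and none was called. The dimmer probe read 8.60, 8.82 and 8.74 after ibuprofen, against 7.74, 7.60 and 8.64 after DMSO. Its log2 change with ibuprofen was 0.73 ± 0.20 (limma over 17674 probes, adjusted p = 0.0182). The DMSO value of 8.64 is that of slide 2, where the ibuprofen arrays lay, and within slide 2 the change was 0.08. The adjusted p with slide as a block was 0.255. Without the 2 arrays apart the dimmer probe's change was 0.55 with rosiglitazone (adjusted p = 0.0217), 0.64 with indomethacin (0.00469), 1.05 with ibuprofen (2.73e-05) and 0.65 with GQ16 (0.0138). In that setting the DMSO arrays lay on slide 1, which held no ibuprofen or GQ16 array. The rosiglitazone arrays left also lay on slide 1, and the dimmer probe was called with rosiglitazone within slide 1 too. Its rosiglitazone change was called in 3 of 24 alternatives. With all arrays the dimmer probe was called with ibuprofen alone.

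Acaca, acetyl-CoA carboxylase 1, which makes malonyl-CoA, had 1 probe, and it was above background on 0 of 18 arrays, with values of 5.70 to 5.78. No change of Acaca can be read from it. Acacb, the mitochondrial-surface carboxylase whose malonyl-CoA restrains fatty acid oxidation, is named after its values were seen. It averaged 10.25 ± 0.12 with rosiglitazone and 9.86 ± 0.06 with DMSO (SD, n = 3 arrays each), a change of 0.39 ± 0.13 (limma, adjusted p = 0.0405). Acacb was not called with any other compound, and its rosiglitazone call was not put through the alternatives.

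Fasn, the fatty acid synthase, lay low on the scale and spread widely within groups. It read 6.75, 6.80 and 6.62 after rosiglitazone, 7.43, 7.60 and 6.92 after diclofenac, 7.22, 6.82 and 6.80 after indomethacin, 6.79, 6.59 and 6.61 after ibuprofen and 6.83, 7.87 and 7.03 after GQ16, against 7.46, 7.26 and 6.65 after DMSO. Every group overlapped DMSO, whose replicate 3 read as low as the rosiglitazone and ibuprofen arrays. The log2 change was -0.40 with rosiglitazone (95% interval -0.85 to 0.05, limma, adjusted p = 0.206) and -0.46 with ibuprofen (-0.91 to -0.01, 0.197). It was 0.19 with diclofenac (-0.25 to 0.64), -0.17 with indomethacin (-0.62 to 0.27) and 0.12 with GQ16 (-0.33 to 0.57). Within slide 1, which holds DMSO replicates 1 and 2, the rosiglitazone change was -0.65 (adjusted p = 0.00784). The fit without the 2 arrays apart compared the same rosiglitazone and DMSO arrays, and Fasn was not called in it. Fasn was called with rosiglitazone in 2 of 27 alternatives. Within slide 2, which holds DMSO replicate 3, the ibuprofen change was 0.02, and without the 2 arrays apart it was -0.70 (adjusted p = 0.024). That last setting put ibuprofen on slide 2 against DMSO on slide 1.

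Me1, the cytosolic malic enzyme that supplies NADPH, showed the same dependence on 1 DMSO array. It read 9.23, 9.40 and 9.26 after ibuprofen, against 10.07, 10.16 and 9.32 after DMSO. The 5 lowest of the 18 arrays were all on slide 2: those 3 ibuprofen arrays, DMSO replicate 3 and GQ16 replicate 1. The log2 change with ibuprofen was -0.56 (95% interval -1.04 to -0.07, limma, adjusted p = 0.141). It was -0.18 under a slide block, -0.03 within slide 2 and -0.82 (adjusted p = 0.00939) without the 2 arrays apart. That last setting put ibuprofen on slide 2 against DMSO on slide 1. The changes with the other 4 compounds were 0.07 with rosiglitazone, -0.06 with diclofenac, -0.09 with indomethacin and -0.08 with GQ16, each with an interval spanning 0.

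The desaturases Scd1 and Scd2, which convert stearate to oleate, were not called with any compound. Scd1 read 14.07 to 14.52 over all 18 arrays, and its log2 changes lay between -0.15 with ibuprofen (95% interval -0.35 to 0.05) and 0.06 with diclofenac (-0.14 to 0.26). Like Acly it lay near the top of the scale, with 19 to 117 brighter probes on an array. Scd2 read 11.83, 11.40 and 11.38 after rosiglitazone, 11.21, 10.82 and 11.31 after diclofenac, 11.23, 10.81 and 11.20 after indomethacin, 11.20, 10.44 and 11.20 after ibuprofen and 11.09, 11.95 and 11.76 after GQ16, against 11.28, 11.23 and 10.77 after DMSO. The 3 rosiglitazone arrays and 2 of the 3 GQ16 arrays lay above all DMSO arrays. The Scd2 change was 0.44 with rosiglitazone (95% interval -0.01 to 0.90, limma, adjusted p = 0.166) and 0.51 with GQ16 (0.05 to 0.96, 0.236), and -0.15 to 0.02 with the other compounds. Scd1 and Scd2 are close relatives, and cross-hybridisation between their probes was not tested.

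Set against rosiglitazone, GQ16 left Mlxipl and Thrsp higher. Mlxipl averaged 9.53 ± 0.23 with GQ16 and 8.75 ± 0.16 with rosiglitazone (SD, n = 3 arrays each), a difference of 0.78 ± 0.18 (limma, adjusted p = 0.00473). Thrsp averaged 12.93 ± 0.11 with GQ16 and 12.15 ± 0.24 with rosiglitazone, a difference of 0.79 ± 0.13 (adjusted p = 0.000247). The arrays of these groups did not overlap for either gene, nor for Fasn and Acly, which were not called. The share of all genes without overlap was not counted. The second Mlxipl probe gave 0.56 (0.00828), and 0.43 within slide 3, where 1 rosiglitazone array was left. These were 2 of 9 members, where 8.74% of all genes tested were higher, 6.04% lower and 14.8% either. The other 7 members had differences of -0.16 (Me1) to 0.52 (Fasn, 95% interval 0.07 to 0.97, adjusted p = 0.107). Fasn passed with slide as a block (0.70, adjusted p = 0.031). In a fit of these 2 groups alone the Mlxipl adjusted p was 0.0722. The Thrsp call was lost within slide 3, where 1 rosiglitazone array was left.

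None of the 9 members was called by limma when diclofenac, indomethacin or ibuprofen was set against rosiglitazone, while an unadjusted p under 0.05 was reached by 1 with diclofenac, 0 with indomethacin and 5 with ibuprofen. The share of all genes called was 1.94% with diclofenac (1.01% higher and 0.931% lower), 0.0365% with indomethacin (0.00913% higher and 0.0274% lower) and 1.34% with ibuprofen (0.630% higher and 0.712% lower). With ibuprofen, Thrsp differed from rosiglitazone by 0.43 (95% interval 0.17 to 0.70, adjusted p = 0.0911), Srebf1 by 0.42 (0.10 to 0.74, 0.176), Mlxipl by 0.39 (0.03 to 0.76, 0.271) on its first probe, Scd2 by -0.59 (-1.04 to -0.13, 0.186) and Me1 by -0.63 (-1.11 to -0.15, 0.18). The second Mlxipl probe gave 0.01 (-0.27 to 0.29, 0.978). Thrsp passed without the 2 arrays apart (0.50, adjusted p = 0.0322). Ibuprofen and rosiglitazone arrays shared no slide, so these differences have no value within a slide. With diclofenac, Fasn differed by 0.59 (0.15 to 1.04, adjusted p = 0.18), and it passed with slide as a block (0.74, 0.0437). The 4 comparisons share the rosiglitazone arrays.

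The 3 regulators varied together over the 18 arrays. Pearson's r was 0.81 between Mlxipl and Thrsp, 0.76 between Mlxipl and Srebf1 and 0.64 between Srebf1 and Thrsp. Mlxipl and Acly had an r of 0.64, and Fasn and Me1 had 0.67. Fasn and Thrsp had an r of 0.08, and Scd2 and Acss2 had -0.69. The arrays share treatments and slides, so these values describe this set of arrays only.

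**Figure D4:**
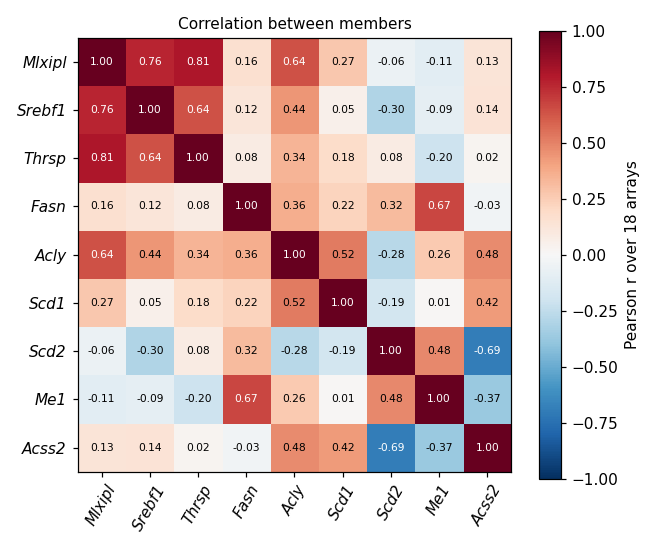
Pearson correlation of log2 intensity between the 9 measured members over 18 arrays, on a colour scale of -1 to 1 with each value printed. The block of Mlxipl, Srebf1 and Thrsp holds values of 0.64 to 0.81.

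The genes most alike to Thrsp in pattern over the 18 arrays were Tns2 (r = 0.95), Mxra8 (0.95) and Izumo4 (0.93). Those most alike to Mlxipl were Sema3f (0.91), Acsm3 (0.91) and Fbxo31 (0.89). Mxra8 had a log2 change of -1.43 with rosiglitazone, -0.90 with diclofenac, -1.60 with indomethacin, -0.83 with ibuprofen and -0.28 with GQ16, all against DMSO, and Acsm3 had one of -1.28 with rosiglitazone, -0.91 with diclofenac, -1.23 with indomethacin, -0.87 with ibuprofen and -0.37 with GQ16. For Srebf1 they were Ctsl (0.90), Chd4 (0.87) and Adam10 (0.86), for Acly Slc16a13 (0.89), Rhou (0.86) and Amy1 (0.86), and for Me1 Prkaca (0.92), Cog2 (0.85) and Hipk2 (0.85). Fasn was most like Ephb4 (0.88), Dap (0.83) and Tomm7 (0.83), Acss2 most like Sf3a1 (0.87), Lsm14a (0.86) and Hnrnpll (0.83), Scd2 most like Mdh1 (0.84), Klhdc3 (0.82) and Dmac2 (0.80), and Scd1 most like Plrg1 (0.80), Tlcd5 (0.74) and Hsph1 (0.73).

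Of 12 measured regulators of SREBP and ChREBP, 3 rose and 1 fell with rosiglitazone, 1 rose with ibuprofen, 1 fell with GQ16 and none was called with diclofenac or indomethacin. Of all genes tested, 8.06% rose and 10.0% fell with rosiglitazone, 0.621% and 1.48% with diclofenac, and 3.58% and 6.65% with indomethacin. With ibuprofen 4.26% rose and 5.20% fell, and with GQ16 0.684% rose and 0.748% fell. The same shares stand beside the counts of the lists below. Insig1, which holds SREBP in the endoplasmic reticulum and is itself an SREBP target, rose by 0.84 ± 0.22 with rosiglitazone (limma, adjusted p = 0.00956) and by 0.79 ± 0.22 with ibuprofen (0.0246, and 0.252 with slide as a block). Scap, which escorts SREBP to the Golgi, rose by 0.52 ± 0.15 with rosiglitazone (0.0193, and 0.0645 without the 2 arrays apart). Mid1ip1, a close relative of Thrsp that promotes acetyl-CoA carboxylase assembly, fell by 0.56 ± 0.19 with rosiglitazone (0.0413). Insig2 fell by 0.74 ± 0.18 with GQ16 (0.0419, and 0.134 with slide as a block). Mlx, the partner of ChREBP, had a log2 change of -0.27 with rosiglitazone and was not called. The Mid1ip1 call held in 17 of 27 alternatives and that of Insig2 in 13 of 27.

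The other 18 measured enzymes of fatty acid synthesis, elongation and desaturation moved in both directions: 5 rose and 3 fell with rosiglitazone, 1 rose with diclofenac, 2 rose and 1 fell with indomethacin, 1 rose and 1 fell with ibuprofen, and 1 rose and 2 fell with GQ16. Elovl3, an elongase of very long chain fatty acids in brown and beige fat, averaged 11.22 ± 0.42 with rosiglitazone and 8.67 ± 0.09 with DMSO (SD, n = 3 arrays each) and rose with every compound. Its log2 change was 2.55 ± 0.18 with rosiglitazone (limma, adjusted p = 7.82e-10), 1.38 ± 0.18 with diclofenac (6.37e-05), 1.99 ± 0.18 with indomethacin (8.46e-08), 2.10 ± 0.18 with ibuprofen (3.9e-08) and 0.89 ± 0.18 with GQ16 (0.0141, and 0.0854 with slide as a block). Hsd17b12, an elongation cycle reductase, rose by 0.75 ± 0.20 with rosiglitazone (limma, adjusted p = 0.0109) and by 0.76 ± 0.20 with indomethacin (0.0155). Without the 2 arrays apart its change was 0.44 with rosiglitazone (0.14) and 0.51 with indomethacin (0.0656), and both calls were also lost without DMSO replicate 3 alone. Acsl5, which activates fatty acids to acyl-CoA, fell by 0.46 with indomethacin (0.0259), 0.49 with ibuprofen (0.021) and 0.52 with GQ16 (0.0489). The Acsl5 call held in 20 of 27 alternatives with indomethacin, 22 of 27 with ibuprofen and 5 of 27 with GQ16. Tecr, the last reductase of the elongation cycle, fell by 0.49 with GQ16 (0.0389), a call that held in 12 of 27 alternatives, with a change of -0.14 when its probes were averaged. Slc25a1, the citrate carrier upstream of Acly, had a log2 change of -0.17 with rosiglitazone, and Elovl6, the elongase of palmitate, one of -0.24, and neither was called. Pcx, pyruvate carboxylase, had a log2 change of -0.56 on its brighter probe with rosiglitazone (limma, adjusted p = 0.00496) and of 0.57 (0.019) when its probes were averaged, so its direction is not settled.

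Of 10 measured genes of NADPH supply, 4 rose and 1 fell with rosiglitazone, 3 rose and 1 fell with indomethacin, 2 rose and 1 fell with ibuprofen, and none was called with diclofenac or GQ16. Those that rose belong to the pentose phosphate pathway. Rpia, the ribose-5-phosphate isomerase, rose by 0.94 ± 0.18 with rosiglitazone (limma, adjusted p = 0.000875) and by 0.61 ± 0.18 with indomethacin (0.0354, and 0.14 with slide as a block). Taldo1, transaldolase, rose by 0.48 ± 0.10 with rosiglitazone and 0.62 ± 0.10 with ibuprofen. Pgd, which makes NADPH directly, rose by 0.51 ± 0.10 with indomethacin (0.00127) and 0.54 ± 0.10 with ibuprofen (0.000908). Idh2, the mitochondrial isocitrate dehydrogenase, fell by 0.81 ± 0.24 with ibuprofen (0.0342, and 0.058 with slide as a block).

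Of 7 measured carbohydrate genes linked to ChREBP, 1 rose and 4 fell with rosiglitazone, 1 fell with diclofenac, 2 fell with indomethacin, 1 rose and 1 fell with ibuprofen and 1 fell with GQ16. Slc2a4, the insulin-responsive glucose transporter GLUT4, fell by 0.69 ± 0.15 with rosiglitazone (limma, adjusted p = 0.00248), 0.66 ± 0.15 with diclofenac (0.0179), 0.67 ± 0.15 with indomethacin (0.00468) and 0.59 ± 0.15 with GQ16 (0.0489, and 0.19 with slide as a block). Khk, ketohexokinase, fell by 0.66 ± 0.15 with rosiglitazone and by 0.71 ± 0.15 with indomethacin. Gpd1, which makes glycerol-3-phosphate for triglyceride, rose by 1.17 ± 0.19 with rosiglitazone and by 0.84 ± 0.19 with ibuprofen. Pnpla3 fell by 0.50 ± 0.12 with ibuprofen (0.00789, and 0.13 with slide as a block). The GQ16 call of Slc2a4 held in 7 of 27 alternatives. Of 9 measured SREBP-2 cholesterol genes, Cyp51 rose by 0.33 and Stard4 fell by 0.58 with rosiglitazone (Stard4 was called in 7 of 27 alternatives) and none was called with the other compounds, and of 7 AMPK subunits and upstream kinases none was called with any compound.

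**Figure D5:**
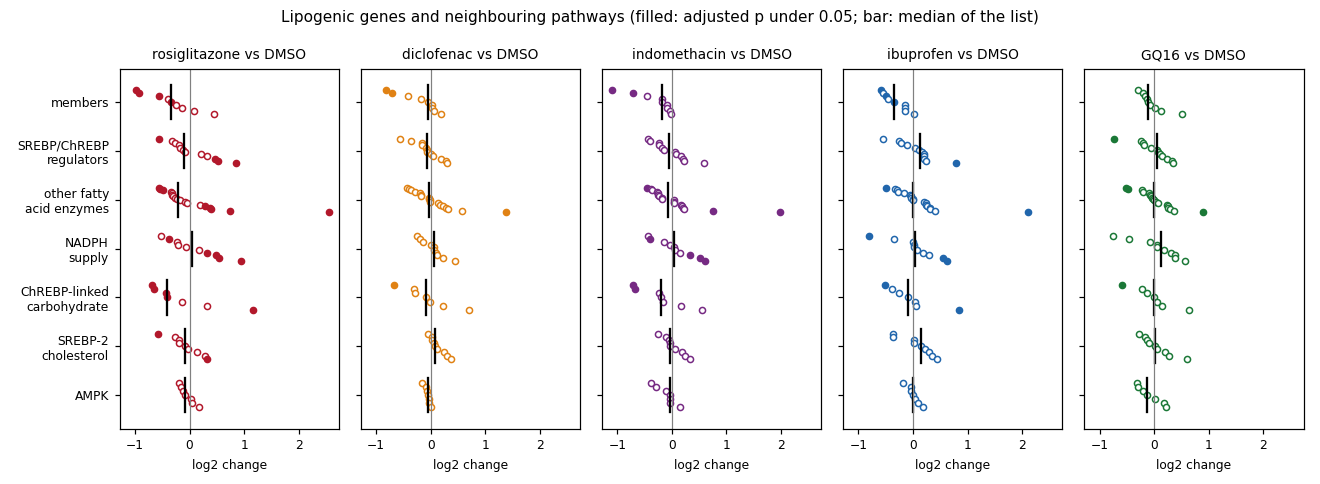
Log2 change against DMSO of the 9 measured members and of the genes of 6 neighbouring lists, 1 panel per compound; each point is a gene, filled where its adjusted p was under 0.05, and the vertical bar is the list's median. The point farthest right in each panel is Elovl3, at 2.55 with rosiglitazone and 0.89 with GQ16.

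Of 9 preadipocyte and fibroblast markers above background, 6 fell with rosiglitazone, 1 with diclofenac, 4 with indomethacin, 4 with ibuprofen and 0 with GQ16, and 0 rose. The shares of all genes that fell were 10.0%, 1.48%, 6.65%, 5.20% and 0.748%, in the same order. The diclofenac gene was Vim (adjusted p = 0.0461, and 0.0584 with the replicate number as a block), called in 10 of 28 alternatives. With ibuprofen, Dlk1 was called in 5 of 27 alternatives, and with slide as a block the adjusted p was 0.373 for Dlk1 and 0.0729 for Pdgfra. Col3a1 was not called when its probes were averaged, with changes of -0.29 with rosiglitazone (limma, adjusted p = 0.283), -0.22 with indomethacin (0.504) and -0.17 with ibuprofen (0.611). The summed linear intensity of the 9 markers was 12885 to 16492 with rosiglitazone, 15865 to 18375 with diclofenac, 15424 to 16937 with indomethacin, 14573 to 17585 with ibuprofen and 16595 to 21823 with GQ16, against 18337 to 22656 with DMSO. The diclofenac and GQ16 ranges overlapped that of DMSO. The part of these markers in the changes of Thrsp, Mlxipl, Srebf1 and Acly was not tested.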

How the data were processed

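Gene expression was measured on 18 Illumina arrays, 3 for each of 6 groups named in the labels. The values are the log2 intensities the authors deposited; the submitters' processing notes name GenomeStudio and lumi, without the versions or settings. The sorted values of the 18 arrays differed by at most 0.00157, so the authors had given the arrays 1 distribution, on which a change shared by most transcripts would not show. The raw signals were set aside, because 36 columns could not be matched to samples. The number of arrays limits the precision.

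Of 45281 probes, 34885 had 1 symbol in the platform annotation, 18 several and 10378 none; 34807 matched a RefSeq table (GRCm38.p6) by Entrez identifier, which changed 0 symbols. A probe was kept if above 6.18, the 95th percentile of 1526 probes of olfactory, vomeronasal and trace amine receptors, on at least 3 arrays. The kept probe with the highest mean stood for a gene. Genes were tested in 1 limma 3.58.1 fit (R 4.3.3) with 1 mean per group, 12 residual degrees of freedom, an intensity trend and two-sided moderated tests, adjusted by Benjamini-Hochberg over 10958 genes per comparison; a gene rose or fell at an adjusted p under 0.05. The method was tested on simulated data. Members and lists, the tests and the alternatives were chosen with earlier results of these data known. Genes named from each list are, per compound, at most the 3 called ones with the largest change, and uncalled ones next to a member's step; Acacb was added outside this rule; the 3 genes most alike to each member were ranked by Pearson's r. No 2 arrays were identical (r within groups 0.973 to 0.997). Deviations of same-numbered arrays correlated at 0.16, 0.39 and 0.48 between diclofenac and DMSO, every pair above 0.1. No other comparison had every pair above 0.1. Differently numbered arrays were not compared, so whether the numbers pair cultures was not tested. The main fit used no pairing. Slides were read from the array barcodes in the labels. Promoter windows are from RefSeq. Alternatives varied the filter, the probe rule, the scaling, the variance prior, the groups fitted, slide or replicate number as a block, and the arrays included.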

Additional observations from a re-analysis of the deposited data

How the results depend on the processing

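No member's called change turned round in any alternative. Besides the values given above, the count of members called was 2 with rosiglitazone in a fit of those 2 groups alone; 1 with diclofenac without the filter on dim probes and within slide 1, and 0 within slide 2; 1 with ibuprofen without the filter; 1 for diclofenac against rosiglitazone (Fasn) with slide as a block; 1 for ibuprofen against rosiglitazone (Thrsp) without the 2 arrays apart; and 1 for GQ16 against rosiglitazone with only those 2 groups or within slide 3. Leaving out 1 array gave 2 to 5 members in the F test, 3 to 5 with rosiglitazone, 1 to 2 with diclofenac, 1 to 3 with indomethacin, 0 to 4 with ibuprofen, 2 to 3 for GQ16 against rosiglitazone, and 0 in the comparisons that called none. With the replicate number as a block the counts were 4 with rosiglitazone, 2 with diclofenac, 2 with indomethacin, 3 with ibuprofen, 0 with GQ16 and 2 for GQ16 against rosiglitazone, and 3 in the F test; the block ended no call of a member. Pcx, the only called list gene that reversed, changed by 0.57 with rosiglitazone when probes were averaged, against -0.56. Of 37 calls in the neighbouring lists that the naming rule ranks (the 3 largest per list and compound), 27 held with slide as a block, 16 whichever array was left out and 7 in every alternative. Shifting the arrays to 1 median moved the median of all genes by under 0.05 and the share of higher calls to 54.0% against 44.5% with rosiglitazone, to 55.2% against 45.0% with ibuprofen, to 39.4% against 52.1% for diclofenac against rosiglitazone, and to 43.8% against 59.1% for GQ16 against rosiglitazone. Within a slide as few as 1 array of a group was left, and such a group added nothing to the spread used in the test. For rosiglitazone against DMSO, slide 1 alone and the fit without the 2 arrays apart compared the same arrays. The cause of the other losses was not tested. Background correction with neqc was not run, because the columns of signals could not be matched to samples, and ibuprofen against rosiglitazone has no value within a slide. Signal over background limits Fasn, at 6.59 to 7.87 against a background of 6.18, and Acaca, which did not exceed it.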
